A study of Mus musculus with 4 samples.

Results

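The Hox genes of the HoxA, HoxB, HoxC and HoxD clusters were followed in chromatin accessibility data of primary osteoblasts. The list held 38 members, 10 of HoxA, 10 of HoxB, 9 of HoxC and 9 of HoxD. Their regions were the rows of the count table that overlapped a member gene or the 2.0 kb before its start in GENCODE M21 on GRCm38. This gave 72 regions at 34 members, out of 255864 regions in all. HoxA had 15 regions, HoxB 14, HoxC 22 and HoxD 21. Neighbouring members are not independent, because 17 regions lay in more than 1 member locus and 14 of the members with regions shared at least 1 of them.

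Accessibility was measured by ATAC-seq, in which a transposase inserts adapters into open DNA, so that the reads falling in a region measure how open it is. The cells were primary osteoblasts, the cells that form bone, from 3-day-old mice of the C57BL/6 strain. WT mice were compared with TCKO mice, which carried Prx1-Cre and the floxed alleles Tet1 fl/fl, Tet2 fl/fl and Tet3 fl/fl. The labels call the WT animals wild type and say nothing of a Cre or a floxed allele in them. TET enzymes oxidise methylated cytosine, the first step in removing DNA methylation. Prx1-Cre is driven by an enhancer known for limb bud mesenchyme and part of the skull mesenchyme, and the methods of the study place the osteoblast isolation in calvarial bone. Each genotype had 2 samples per the labels, although a protocol text spoke of 3 repeats. The count table held 1 merged column per genotype, so neither a spread between replicates nor a test of genotype could be had.

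Hox genes encode homeodomain transcription factors that give cells along the body axis their positional identity. Within each cluster their order on the chromosome matches the order in which they are expressed from head to tail. Genes of low paralogue number are anterior and those of high number posterior, and the posterior HoxA and HoxD genes also pattern the limb. The clusters are rich in unmethylated CpG dinucleotides and are classical targets of Polycomb silencing and Trithorax activation. The skull vault forms in head tissue in front of most Hox expression domains.

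The table totals were 56898657 counts in WT and 34608167 in TCKO. Ratios are log2 of the TCKO count, multiplied by 1.64 to match the WT total, plus 1, over the WT count plus 1. Each is followed in parentheses by a 95% Wilson interval of counting error alone, because each genotype was 1 merged column. The interval takes reads as independent, so it is too narrow where several reads come from the same molecule. A ratio of 0 therefore means a constant share of all counts in regions, and not a constant absolute signal. Scaling by the background of the peak caller would lower each ratio by 0.61, which is a shift of all regions and leaves differences between Hox loci unchanged. In merged bulk cells, fewer cells of a type and less signal per cell cannot be told apart.

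The osteoblast marker loci Runx2, Sp7, Alpl, Col1a1, Bglap and Ibsp held 93 to 17646 WT counts. Of these, 5 of 6 ratios were below 0, beside 10147 of all 18049 protein-coding loci with a region. Only Sp7 and Alpl had an interval below 0, and the other intervals included 0. All 4 endothelial loci (Pecam1, Cdh5, Kdr and Tek) had ratios above 0, from 0.23 to 0.54, beside 7902 of the 18049 loci. The 5 macrophage or osteoclast loci ranged from -0.36 to 0.42. Of the 4 muscle genes, Myog and Acta1 had no region. Myod1 held 50 WT and 29 TCKO counts, a ratio of -0.07 (-0.72 to 0.59). Myf5 held 223 and 151, a ratio of 0.15 (-0.14 to 0.45). The part of other cells in the Hox values was not tested. The Tet1, Tet2 and Tet3 loci had ratios of -0.14 to -0.22, which do not check the knockout, because accessibility of a locus is not its transcript.

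As a group, the Hox loci were weakly accessible in both genotypes and took a slightly larger share of the TCKO counts than of the WT counts. The 72 regions held 6865 counts in WT and 4734 in TCKO, or 0.0121% of all WT counts and 0.0137% of all TCKO counts. The summed ratio was 0.18 (0.13 to 0.23). The median region had a ratio of 0.055, beside 0.064 over all regions, so the typical Hox region did not stand apart from the genome. Of the 72 regions, 45 had a ratio above 0 and 27 below 0 (37.5%, beside 45.4% of all regions below 0). These directions hold only for scaling to the total: with the peak caller background the Hox median was -0.55 and the median of all regions -0.54.

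The regions that carry the extremes are shown by their reference sequence. The first 4 are the lowest ratios among the Hox regions with at least 100 counts, and the last 3 are the highest. Up to 300 bases of each are printed 5′ to 3′ on the strand of the gene in GRCm38, with each CG dinucleotide, the substrate of TET-dependent demethylation, in capitals.
Hoxd3 and Hoxd4 intron, chr2:74715864-74716163, plus strand: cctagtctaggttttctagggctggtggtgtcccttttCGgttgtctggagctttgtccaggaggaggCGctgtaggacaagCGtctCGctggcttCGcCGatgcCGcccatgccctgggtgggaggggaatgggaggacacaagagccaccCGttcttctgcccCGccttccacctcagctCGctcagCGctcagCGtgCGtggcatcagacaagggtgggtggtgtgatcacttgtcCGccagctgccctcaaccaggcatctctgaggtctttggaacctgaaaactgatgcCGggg
Hoxb6 intron, chr11:96294632-96294924, plus strand: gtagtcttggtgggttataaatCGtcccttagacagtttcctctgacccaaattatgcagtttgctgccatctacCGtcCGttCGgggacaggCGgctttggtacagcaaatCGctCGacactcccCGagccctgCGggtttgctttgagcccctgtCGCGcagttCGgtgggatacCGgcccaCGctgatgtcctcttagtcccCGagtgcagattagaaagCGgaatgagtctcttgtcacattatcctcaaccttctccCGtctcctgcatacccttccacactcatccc
Hoxd10 upstream, chr2:74691569-74691868, plus strand: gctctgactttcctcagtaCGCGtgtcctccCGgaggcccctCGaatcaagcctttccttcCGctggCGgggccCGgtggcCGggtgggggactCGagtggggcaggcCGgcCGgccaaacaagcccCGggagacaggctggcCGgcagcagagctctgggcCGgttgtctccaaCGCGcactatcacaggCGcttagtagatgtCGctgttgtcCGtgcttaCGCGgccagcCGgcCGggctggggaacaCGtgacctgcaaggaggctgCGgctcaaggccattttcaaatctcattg
Hoxc4 intron, chr15:103027463-103027762, plus strand: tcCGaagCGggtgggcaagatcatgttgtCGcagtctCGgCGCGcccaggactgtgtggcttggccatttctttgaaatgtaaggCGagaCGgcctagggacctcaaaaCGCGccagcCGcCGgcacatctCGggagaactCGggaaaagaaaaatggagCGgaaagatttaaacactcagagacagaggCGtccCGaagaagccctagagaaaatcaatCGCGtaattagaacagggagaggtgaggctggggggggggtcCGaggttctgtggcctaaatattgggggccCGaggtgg
Hoxa3 intron, chr6:52211549-52211848, minus strand: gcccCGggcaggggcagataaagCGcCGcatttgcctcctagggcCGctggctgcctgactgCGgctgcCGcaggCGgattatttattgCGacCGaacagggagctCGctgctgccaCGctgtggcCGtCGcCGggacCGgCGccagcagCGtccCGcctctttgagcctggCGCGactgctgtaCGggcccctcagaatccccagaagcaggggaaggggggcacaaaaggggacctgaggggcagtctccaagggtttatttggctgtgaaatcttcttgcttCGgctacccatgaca
Hoxb2 coding exon, chr11:96353244-96353543, plus strand: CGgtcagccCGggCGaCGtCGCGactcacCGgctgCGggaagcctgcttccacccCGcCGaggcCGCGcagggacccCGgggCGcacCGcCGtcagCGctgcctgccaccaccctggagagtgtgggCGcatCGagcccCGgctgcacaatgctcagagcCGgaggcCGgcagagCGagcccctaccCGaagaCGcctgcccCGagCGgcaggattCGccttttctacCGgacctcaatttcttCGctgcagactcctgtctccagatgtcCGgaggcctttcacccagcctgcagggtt
Hoxb5 upstream, chr11:96303126-96303335, plus strand: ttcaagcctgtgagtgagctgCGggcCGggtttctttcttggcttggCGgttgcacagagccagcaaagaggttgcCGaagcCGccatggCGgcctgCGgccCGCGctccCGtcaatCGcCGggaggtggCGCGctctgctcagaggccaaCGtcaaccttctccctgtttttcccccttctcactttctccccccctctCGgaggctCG

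These windows held 15, 17, 25 and 21 CG dinucleotides for the low group and 22, 31 and 17 for the high group, so a wealth of CG was common to both. The Hoxc4 window held the homeodomain core TAATTA and the Hoxa3 window held TTTATNG, the letters searched for posterior HOX proteins. The other 5 windows held none of the 6 motifs searched.

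The counts of every region are drawn along the clusters in the map of WT and TCKO counts. The tallest WT bar lay in HoxD, in the intron shared by Hoxd3 and Hoxd4.

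**Figure D1:**
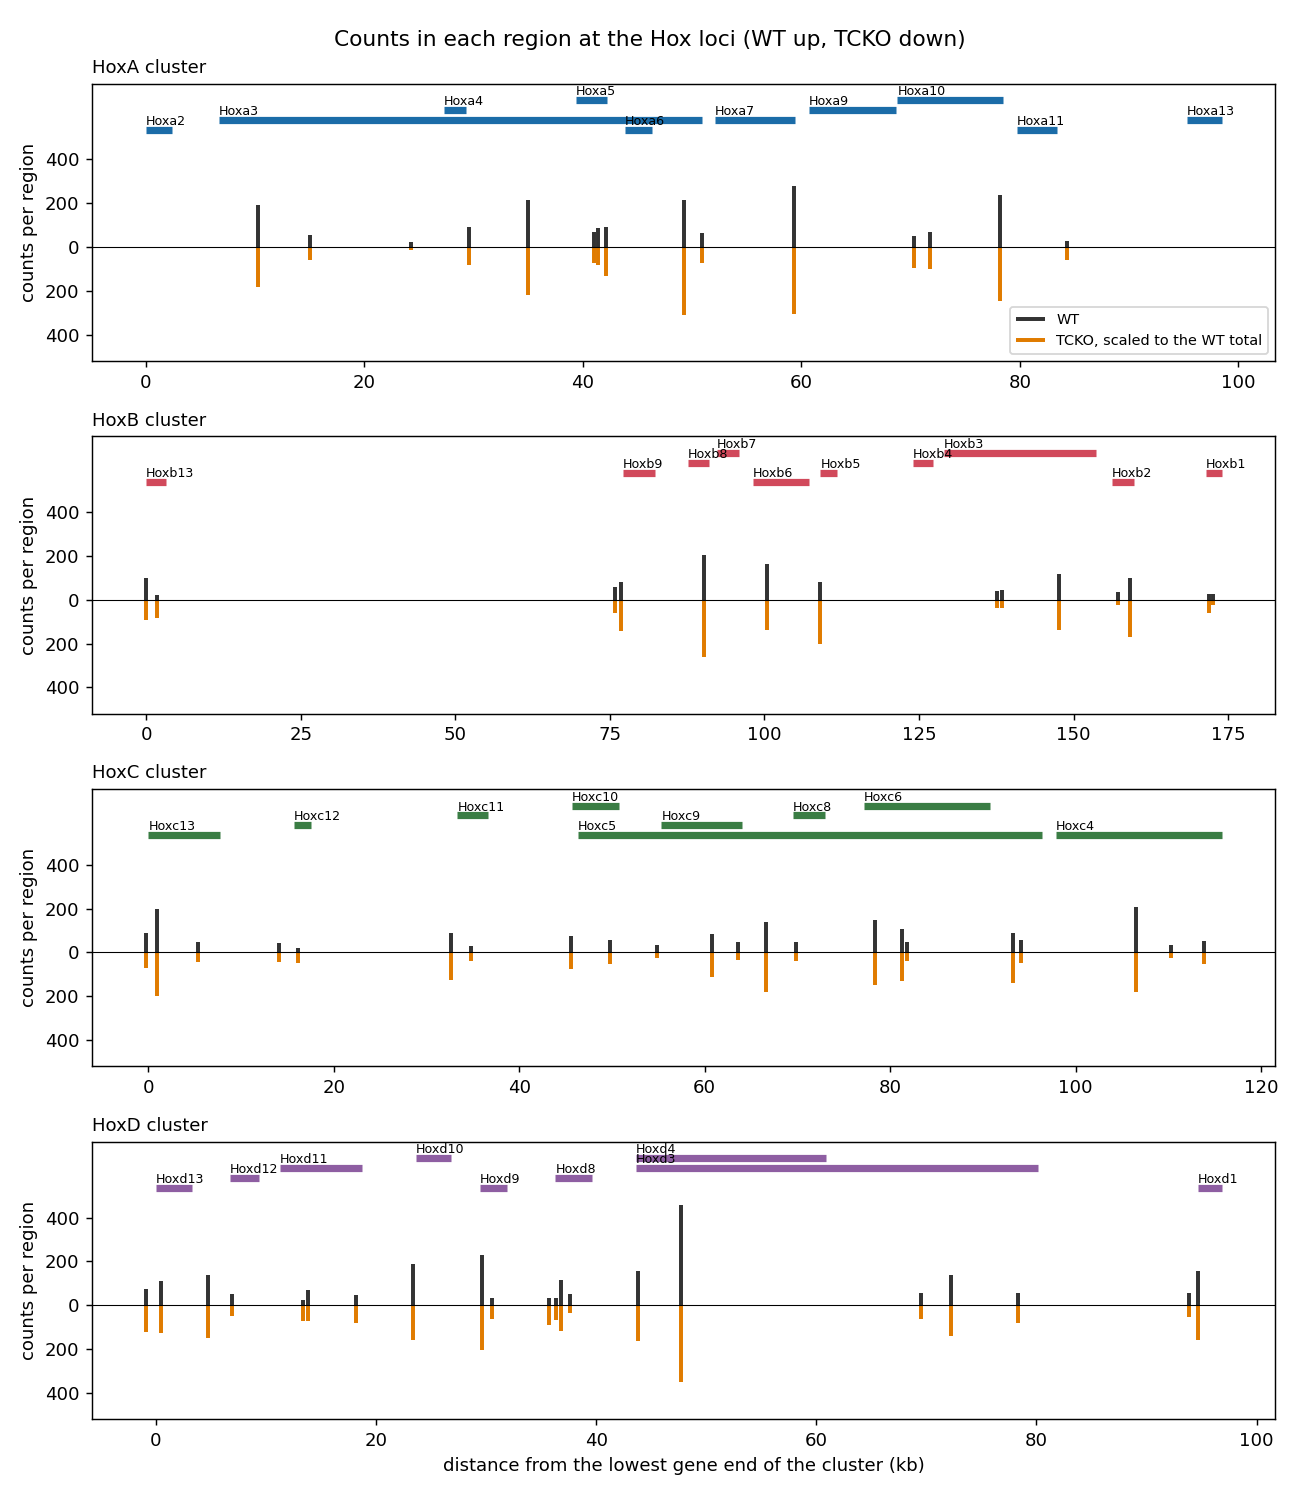
Counts in each Hox region against distance in kb from the lowest gene end of its cluster, with WT drawn upward, TCKO scaled to the WT total drawn downward and gene spans as coloured bars. No region exceeded 459 WT counts, and most regions had bars of similar length in both directions.

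The cluster sums ordered as HoxB, HoxA, HoxC and HoxD. HoxB held 1091 WT and 899 TCKO counts, a ratio of 0.44 (0.31 to 0.57). HoxA held 1761 and 1244 counts, a ratio of 0.22 (0.11 to 0.32). The HoxC sum was 1741 in WT and 1127 in TCKO, a ratio of 0.09 (-0.02 to 0.20). HoxD, with the most counts, had 2272 and 1464, a ratio of 0.08 (-0.01 to 0.18). The signs for HoxA and HoxB turn with the peak caller background, to -0.39 and -0.17, but the order of the clusters does not depend on the factor.

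Differences between clusters were therefore compared directly. The HoxB ratio exceeded that of HoxD by 0.35 (0.20 to 0.51) and that of HoxC by 0.35 (0.18 to 0.52). HoxA was lower than HoxB, with a difference of -0.22 (-0.39 to -0.06). HoxA did not differ beyond counting error from HoxC, at 0.13 (-0.02 to 0.28), or from HoxD, at 0.13 (-0.01 to 0.27). The HoxC and HoxD ratios differed by 0.01 (-0.14 to 0.15). Single regions weighed on these values. Without the Hoxb5 region, HoxB had a ratio of 0.34 (0.20 to 0.47), its excess over HoxD was 0.26 (0.09 to 0.42) and the difference of HoxA from HoxB was -0.12 (-0.29 to 0.05). Without the Hoxd3 and Hoxd4 intron region, HoxD had a ratio of 0.18 (0.08 to 0.29) and HoxB exceeded it by 0.25 (0.09 to 0.42). No replicate spread stands behind any of these differences.

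No Hox region fell by 2-fold or more, beside 4.51% of all regions. At least 2-fold higher values were found at 7 of the 72 regions (9.72%), beside 12.3% of all regions. The share of higher regions was thus near the background. With the peak caller background 4 Hox regions were lower and 1 higher (5.56% and 1.39%), beside 19.9% and 3.91% of all regions. Those 7 regions held at most 122 counts in either genotype. Each had an interval above 0, which adds no support because the regions were picked for a high ratio. All but that of Hoxb5 had a peak summit in TCKO alone, the genotype where they were high. Regions of low count are spread widely in all of the genome. Of the 21 Hox regions with under 80 counts over both genotypes, 5 were at least 2-fold higher (23.8%), and the share was 24.3% over all regions of that size. The interval of a Hox region reached 0.53 to either side at the median, and a change within a region's own interval was not detectable at this depth.

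**Figure D2:**
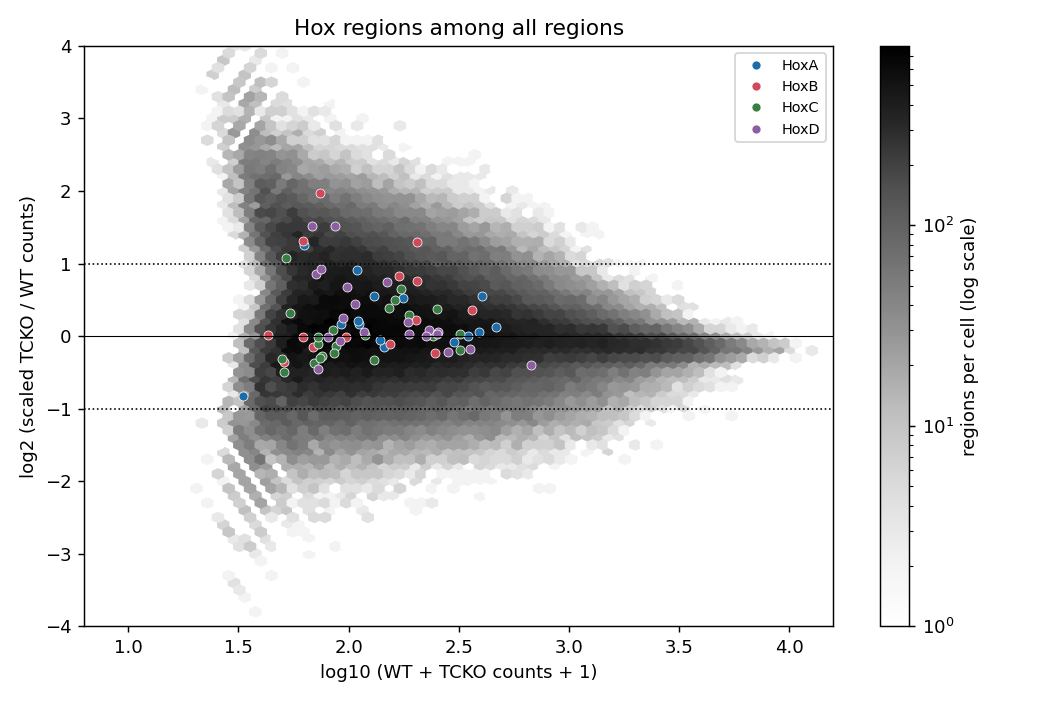
Log2 ratio of scaled TCKO over WT counts against log10 of the summed counts plus 1, for all 255864 regions (grey cells, darker with more regions) and the 72 Hox regions (points coloured by cluster), with dotted lines at a 2-fold change. The Hox points lie inside the cloud of all regions, 7 of them above the upper line and 0 below the lower line.

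By locus, the ratio interval lay below 0 at 1 of the 34 members with regions (Hoxd4, 2.94%), beside 32.7% of all protein-coding loci with a region. It lay above 0 at 15 members (44.1%), beside 23.6% of all loci, and included 0 at 18. Among the 15, Hoxa11, Hoxb1, Hoxb13, Hoxd8 and Hoxd11 included regions with a peak summit in TCKO alone. Such regions were called only in the genotype where they were high, so the count of 15 gives no independent support for a rise. Hox loci held few counts, with a median total of 320.5 beside 2442 over all loci. Among the 4126 protein-coding loci with under 1000 counts, 10.96% had an interval below 0 and 36.1% above 0. Of the 31 Hox loci of that size, 1 lay below 0 and 14 above. These counts refer to scaling by the total, and the sign of 10 of the 15 higher loci turns with the peak caller background.

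**Figure D3:**
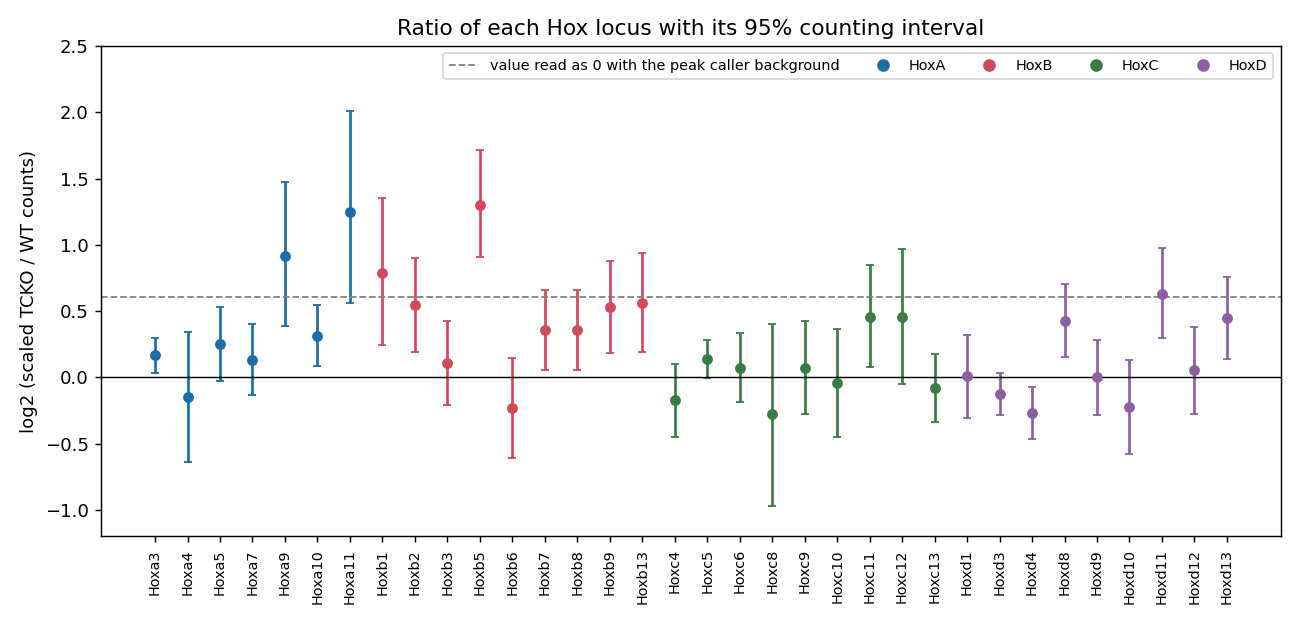
Log2 ratio of scaled TCKO over WT summed counts at the 34 Hox loci with a region, with bars for the 95% counting interval and colours for the cluster. The dashed line marks the value that would read as 0 under the peak caller background. Hoxb5 stands highest among loci with at least 200 counts, at 1.30, and only the interval of Hoxd4 lies wholly below 0 under scaling to the total.

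In HoxA the counts lay mainly at Hoxa3, Hoxa7 and Hoxa10. Hoxa3 (ENSMUSG00000079560, chr6:52169062-52213336), which is needed for the thymus and parathyroid, held 10 regions with 1100 WT and 751 TCKO counts, a ratio of 0.17 (0.03 to 0.30). Its gene model spans Hoxa4, Hoxa5 and Hoxa6, and 4 of the 10 regions are shared with Hoxa4 or Hoxa5. Within it the ratios ran from -0.82 at an intron region of 24 WT and 8 TCKO counts to 0.56 (0.28 to 0.84) at the intron region at chr6:52211453-52211943, with 212 and 190 counts. The region of the cluster with the most WT counts lay at an upstream start of Hoxa7, a gene of the thoracic level, at chr6:52221496-52221928. It had 279 WT and 186 TCKO counts, a ratio of 0.13 (-0.13 to 0.40). Hoxa10, which acts in the lumbar spine and proximal limb, held 357 and 270 counts, a ratio of 0.31 (0.09 to 0.54). Hoxa5, known for lung and lower neck, held 246 and 178 counts, a ratio of 0.25 (-0.03 to 0.53). The small loci Hoxa4, Hoxa9 and Hoxa11 held 25 to 93 WT counts and 37 to 58 TCKO counts, and their ratios spread from -0.15 to 1.25. Hoxa2, Hoxa6 and Hoxa13 had no region. Hoxa13 patterns the hand and foot, and Hoxa2 patterns the second pharyngeal arch.

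HoxB held the largest rises relative to the total. Hoxb5 (ENSMUSG00000038700, chr11:96303336-96306121), known for the shoulder girdle and the enteric nervous system, had a single region that ended just inside the gene at chr11:96303126-96303364. It held 81 counts in WT and 122 in TCKO, so that the raw TCKO count was higher although the TCKO library was smaller. Its ratio was 1.30 (0.90 to 1.71) and stayed above 0 at 0.69 with the peak caller background. A coding exon region of Hoxb2, a hindbrain gene, at chr11:96353184-96353602 likewise had 100 counts in WT and 103 in TCKO, a ratio of 0.75 (0.36 to 1.16). The Hoxb2 locus as a whole held 134 and 119 counts, a ratio of 0.54 (0.19 to 0.90). Hoxb9, which patterns the thoracic segments, held 141 and 124 counts, a ratio of 0.53 (0.18 to 0.88). Hoxb13, the most posterior member of the cluster, held 119 and 107 counts, a ratio of 0.56 (0.19 to 0.94).

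The Hoxb13 regions moved apart. Its start region held 98 WT and 55 TCKO counts, a ratio of -0.11 (-0.59 to 0.36). The coding exon region at chr11:96195898-96196062 held 21 and 52 counts, a ratio of 1.98 (1.30 to 2.75), the highest of the 72. It had a peak summit in TCKO alone. Hoxb7 and Hoxb8, both trunk genes, shared their only region, which held 204 and 159 counts, a ratio of 0.36 (0.06 to 0.66). Hoxb1, which specifies a segment of the hindbrain, held 50 and 53 counts, a ratio of 0.79 (0.25 to 1.36). Its region of 24 and 37 counts had a peak summit in TCKO alone. Hoxb3 held 200 and 131 counts, a ratio of 0.11 (-0.21 to 0.42). Hoxb6 was the one HoxB member with a ratio below 0. Its intron region at chr11:96294632-96294924 held 162 and 84 counts, a ratio of -0.23 (-0.61 to 0.15). Hoxb4, known for the expansion of blood stem cells, had no region. With the peak caller background the ratios of Hoxb2, Hoxb7, Hoxb8, Hoxb9 and Hoxb13 were below 0, from -0.04 to -0.25.

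Of the 9 HoxC loci, 8 had an interval that held 0, beside 7883 of all 18049 protein-coding loci with a region. The gene model of Hoxc5 (ENSMUSG00000022485, chr15:102967443-103017429) spans Hoxc6, Hoxc8, Hoxc9 and much of Hoxc10 through its long transcripts. It held 12 regions with 932 WT and 624 TCKO counts, a ratio of 0.14 (-0.01 to 0.28), and 9 of the regions were shared. The most WT counts in 1 HoxC region were at an intron of Hoxc4, a neck-level gene, at chr15:103027362-103027863. They were 209 in WT and 111 in TCKO, a ratio of -0.19 (-0.53 to 0.14). Hoxc13, needed for hair and nails, held 330 and 190 counts, a ratio of -0.08 (-0.34 to 0.18). Hoxc11, a posterior gene, held 117 and 98 counts, a ratio of 0.46 (0.08 to 0.85), and was the only HoxC locus with an interval above 0 under scaling to the total. With the peak caller background its ratio was -0.15. For Hoxc6, Hoxc9 and Hoxc10 the ratios were 0.07, 0.07 and -0.05, with 129 to 305 WT counts and intervals that held 0. The small loci Hoxc8 and Hoxc12 had 50 and 25, and 67 and 56 counts in WT and TCKO, with ratios of -0.28 (-0.97 to 0.40) and 0.45 (-0.05 to 0.97). Single regions of HoxC reached 1.08 (0.33 to 1.91) at a Hoxc12 coding exon with 22 and 29 counts, and 0.64 (0.22 to 1.08) at a Hoxc5 coding exon with 88 and 84. The Hoxc12 exon region had a peak summit in TCKO alone. An intron region of Hoxc5 at chr15:102987519-102987801 held 140 and 110 counts, a ratio of 0.37 (0.01 to 0.73). Another at chr15:103002189-103002470, shared with Hoxc6, held 107 and 80 counts, a ratio of 0.30 (-0.12 to 0.71).

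HoxD held the strongest Hox region, which was also the one Hox region with an interval below 0 under scaling to the total. The intron region at chr2:74715794-74716232, shared by Hoxd3 and Hoxd4, held 459 counts in WT and 212 in TCKO. Its ratio was -0.40 (-0.63 to -0.16), the only interval below 0 among the 72 regions (1.39%, beside 18.9% of all regions). An interval above 0 was found at 21 Hox regions (29.2%, beside 29.5%). The peak list fold enrichment at the summit of the intron region was 11.4 in WT and 8.57 in TCKO. This region was singled out from the 72, which its interval does not allow for. It carried most of the Hoxd4 locus (ENSMUSG00000101174, chr2:74711929-74729160), which held 614 and 310 counts, a ratio of -0.27 (-0.47 to -0.07). When only regions within 2.0 kb of a start were summed, the Hoxd4 ratio was 0.06. Hoxd3, which shapes the upper neck vertebrae, shared the region and held 865 and 482 counts, a ratio of -0.13 (-0.29 to 0.03). Hoxd10, a gene of the lumbar cord and limb, had 1 region, just before its start at chr2:74691531-74691905. It held 186 and 97 counts, a ratio of -0.22 (-0.58 to 0.13). Hoxd9 held 263 and 160 counts, a ratio of 0.00029 (-0.28 to 0.28), while its start region at chr2:74697645-74698179 held 230 and 123, a ratio of -0.18 (-0.50 to 0.13).

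Among the other HoxD genes, Hoxd13, Hoxd11 and Hoxd8 had intervals above 0 under scaling to the total, beside 23.6% of all protein-coding loci. Hoxd13 and Hoxd11 pattern the digits and the forearm and lower leg. Hoxd13 had 182 WT and 151 TCKO counts, a ratio of 0.45 (0.14 to 0.76). Hoxd11 held 144 and 136 counts, a ratio of 0.63 (0.30 to 0.97), and its intron region of 24 and 43 counts had a peak summit in TCKO alone. Hoxd8, a trunk gene, held 231 and 189 counts, a ratio of 0.43 (0.15 to 0.70). Its regions of 31 and 55 and of 34 and 40 counts had a peak summit in TCKO alone, the genotype where they were high. The remaining Hoxd8 regions had ratios of 0.03 (-0.39 to 0.45) and -0.46 (-1.18 to 0.25), so the locus value rests on the TCKO-only regions. With the peak caller background Hoxd8 and Hoxd13 were below 0, at -0.18 and -0.16. Hoxd12, which lies between Hoxd13 and Hoxd11, held 190 and 120 counts, a ratio of 0.05 (-0.27 to 0.38). Hoxd1, the anterior end gene, held 211 and 129 counts, a ratio of 0.01 (-0.31 to 0.32).

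Per length, the level of the loci differed more between members than between genotypes. In WT, Hoxd9 held 58.7 counts per kb of gene and upstream sequence, Hoxa5 50.9, Hoxd1 50.7 and Hoxd8 43.4. The lowest levels among the loci with regions were 4.38 counts per kb at Hoxa11 and 5.01 at Hoxa9. In TCKO the scaled levels were 58.7 at Hoxd9, 60.5 at Hoxa5, 50.9 at Hoxd1, 58.4 at Hoxd8, 10.7 at Hoxa11 and 9.55 at Hoxa9. The same short loci of HoxD and Hoxa5 thus stood high in both genotypes.

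By paralogue position, position 4 was lowest and position 11 highest. Position 4 (Hoxa4, Hoxc4 and Hoxd4, with no region at Hoxb4) held 1002 WT and 520 TCKO counts, a ratio of -0.23 (-0.38 to -0.08). Position 11 (Hoxa11, Hoxc11 and Hoxd11) held 286 and 271 counts, a ratio of 0.64 (0.40 to 0.88). None of its 6 regions had a ratio below 0, beside 45.4% of all regions, but regions of a position are not replicates. The only Hoxa11 region and the Hoxd11 intron region of 24 WT and 43 TCKO counts had a peak summit in TCKO alone. Positions 4 and 11 were picked as the extremes of 13, which the following interval does not allow for. The difference of position 11 from position 4 was 0.87 (0.58 to 1.15), and it was 0.74 (0.43 to 1.05) without the Hoxd3 and Hoxd4 intron region. Without that region position 4 itself had a ratio of -0.10 (-0.30 to 0.10). The other positions ranged from -0.03 at position 6 to 0.54 at position 2, without a steady course from 1 to 13.

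**Figure D4:**
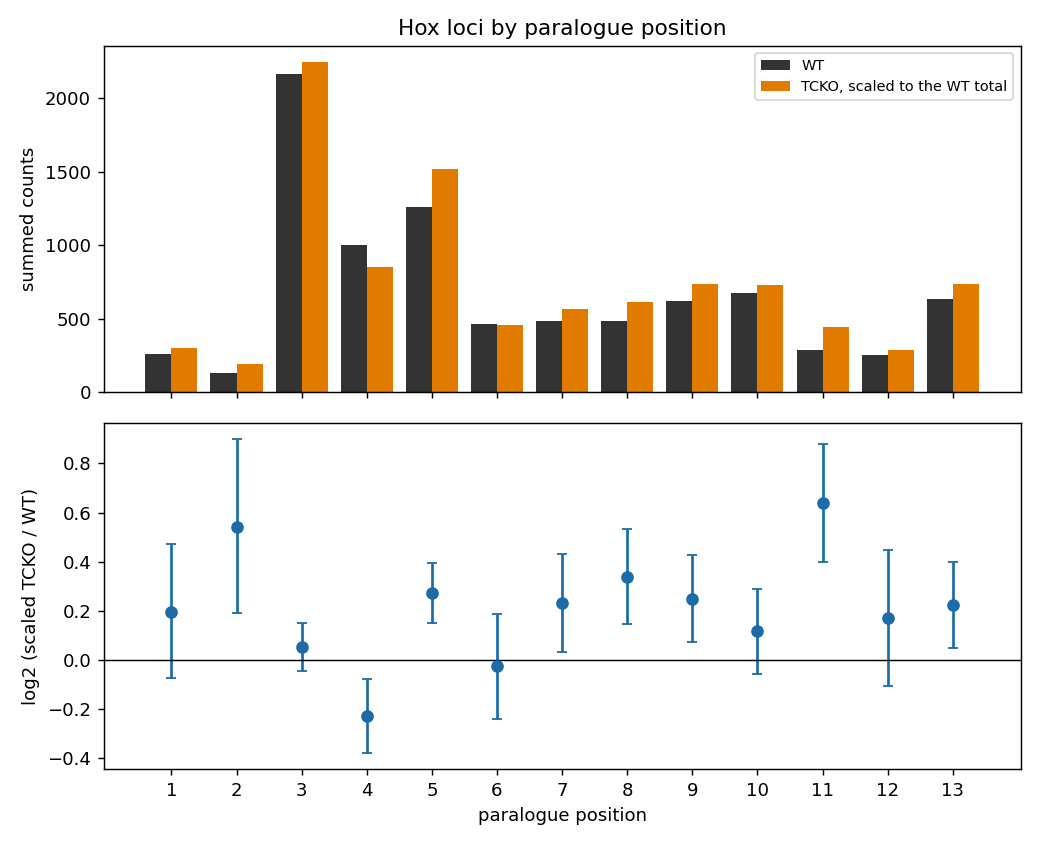
Summed counts at the Hox loci by paralogue position, with WT in dark and scaled TCKO in orange (upper panel, counts), and the log2 ratio of scaled TCKO over WT with bars for the 95% counting interval (lower panel). Position 3 holds the most counts, summed over the long gene models of Hoxa3 (44.3 kb), Hoxb3 (24.6 kb) and Hoxd3 (36.5 kb). Position 4 has the lowest ratio and position 11 the highest.

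By class, the anterior members (positions 1 to 3) had a ratio of 0.10 (0.01 to 0.19), the central members (4 to 8) 0.11 (0.03 to 0.19) and the posterior members (9 to 13) 0.23 (0.15 to 0.32). Their counts were 2560 in WT and 1665 in TCKO, 3137 and 2062, and 2414 and 1727. The classes are not separate sets, because they held 24, 29 and 30 regions out of 72 in all. The Hoxd3 and Hoxd4 intron region counted in both the anterior and the central class. With the peak caller background the 3 ratios were -0.51, -0.50 and -0.37. The posterior ratio exceeded the anterior one by 0.14 (0.01 to 0.26), a difference that was 0.05 (-0.08 to 0.18) without the Hoxd3 and Hoxd4 intron region. In HoxD alone, posterior exceeded anterior by 0.28 (0.07 to 0.48), and by 0.09 (-0.14 to 0.32) without that region. When only regions within 2.0 kb of a start were summed, the order turned, with 0.28 for the anterior, 0.27 for the central and 0.24 for the posterior members. The class order thus rested on the regions chosen. By cluster, the posterior ratio was 0.40 (0.19 to 0.62) in HoxA with 382 WT and 307 TCKO counts, 0.54 (0.29 to 0.80) in HoxB with 260 and 231, and 0.10 (-0.06 to 0.26) in HoxC with 807 and 525. The anterior ratio was 0.17 (0.03 to 0.30) in HoxA, from Hoxa3 alone, and 0.37 (0.16 to 0.59) in HoxB, and HoxC has no anterior member.

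The base composition of the Hox regions was not itself a criterion of choice, but the choice of genes and upstream sequence favours regions near starts. Their median GC content was 60.5%, beside 48.5% over all regions. The ratio of observed to expected CpG was 0.738 at the median, beside 0.190. In all, 43 of the 72 regions were CpG-dense, with GC of at least 55% and an observed to expected CpG ratio of at least 0.6, a share of 59.7% beside 5.49%. Their place is largely fixed by the choice of genes and upstream sequence. A midpoint within 1 kb of a transcript start was found for 41 (56.9%, beside 10.8%). Of these 41, 80.5% were CpG-dense, beside 42.2% of all regions that near a start. By annotation 18 of the 72 lay in coding exons, 12 in untranslated exons, 2 in other exons, 26 in introns and 14 outside genes.

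Accessibility at Hox starts was far below that of other CpG-dense starts. Of the 38 members, 20 had a CpG-dense main start, and 16 of these had a region within 1 kb (80%), beside 97.7% of 8796 genes with such a start. The median WT count there was 84 at the Hox starts, beside 1195 over all CpG-dense starts, and 81.5 beside 678.5 in TCKO. The highest Hox start in WT, Hoxc13, held 284 counts, which is percentile 9.44 of the CpG-dense starts. The highest in TCKO, Hoxd8, held 167 counts, which is percentile 8.53. All 20 lay below the lower quartile of 695 WT counts. The main start of Hoxa7 had no region, and its strongest region lay at another annotated start. Counting any annotated start, 30 of the 38 members had a region within 1 kb.

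**Figure D5:**
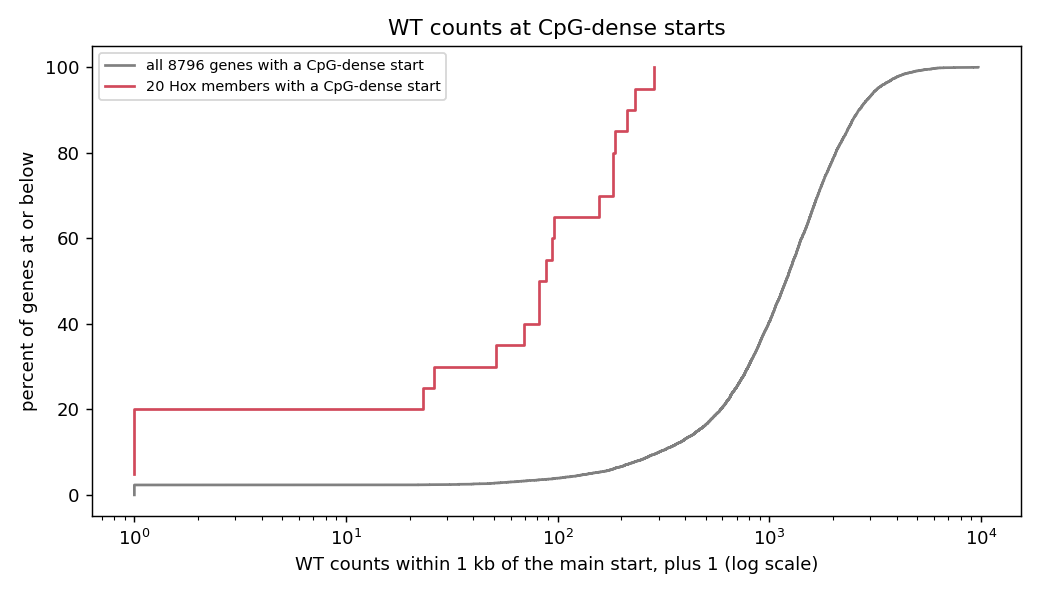
Cumulative percent of genes against WT counts within 1 kb of the main start plus 1 (log scale), for the 20 Hox members with a CpG-dense start (red) and all 8796 genes with such a start (grey). The red line reaches 100% at 284 counts, which is percentile 9.44 of the grey line.

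The same held region by region. The 33 CpG-dense promoter regions of Hox loci held a median of 81 WT and 58 TCKO counts, beside 803 and 462 over all 11665 such regions. These counts are not per length, and the Hox regions were narrower, with a median width of 247 bp beside 792 bp. The gap per base is therefore smaller than the gap in counts. Their median ratio was 0.059, beside -0.080 over all. At least 2-fold higher values were found at 5 of the 33 (15.2%), beside 0.797%. The share depends on the count: of all CpG-dense regions, 15.5% were 2-fold higher with under 80 counts over both genotypes, 5.43% with 80 to 160 and 0.161% with 160 or more. Of all Hox regions, 5 of 21, 1 of 23 and 1 of 28 were 2-fold higher in these ranges, and the last was the region of Hoxb5.

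The peak lists gave each region a summit in WT, in TCKO or in both. Of the 72 Hox regions, 34 had a summit in both lists (47.2%, beside 56.8% of all regions). A summit in WT alone was found at 30 (41.7%, beside 33.0%), and in TCKO alone at 8 (11.1%, beside 10.2%). The 8 were at Hoxa11, Hoxb1, Hoxb13, Hoxc12, Hoxd8, Hoxd9 and Hoxd11, with 2 at Hoxd8. They held 21 to 34 counts in WT and 29 to 55 in TCKO. The 30 WT-only regions held 24 to 155 counts in WT and 8 to 98 in TCKO, with a median ratio of -0.02. At the median, these regions thus had about the same share of the counts in both genotypes. Where both lists had a summit, the median fold enrichment over the local background was 5.56 in WT and 4.46 in TCKO, and WT was higher in 28 of 34 (82.4%, beside 69.7% over all regions).

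Short consensus motifs were searched in the central 200 bp of each region on both strands. The Runt motif TGTGGT, bound by RUNX factors, occurred in 10 Hox regions (13.9%, beside 22.2% of all regions). The AP-1 motif TGANTCA occurred in 4 (5.56%, beside 23.6%). The homeodomain core TAATTA occurred in 4 (5.56%, beside 2.47%), the posterior HOX letters TTTATNG in 4 (5.56%, beside 7.30%) and the HOX-PBX letters TGATTNAT in 1 (1.39%, beside 4.02%). The CTCF motif occurred in 0, beside 1.40% of all regions. These are matches of letters, and CpG-dense regions as a class also held few of them, with AP-1 in 2.45% and Runt in 6.43%.

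Genes that act with or on the Hox genes were read from the same table. The 8 cofactor genes read here, whose TALE homeodomain proteins bind DNA together with HOX proteins, held 677 to 12488 WT counts. Their interval lay below 0 at 2 and above 0 at 2, beside 32.7% and 23.6% of all protein-coding loci, with a median ratio of 0.03. Pknox2, the largest, held 12488 WT and 8202 TCKO counts, a ratio of 0.11 (0.07 to 0.15), and Meis1 held 5442 and 3752, a ratio of 0.18 (0.12 to 0.24). Meis3 was the lowest with 952 and 458 counts, a ratio of -0.34 (-0.50 to -0.18). Among the 12 Polycomb genes, which keep Hox loci silent, 2 lay below 0 and 1 above (again beside 32.7% and 23.6%), with a median of -0.0043. They were Eed at -0.19 (-0.31 to -0.07) with 1617 and 862 counts, Rnf2 at -0.24 (-0.36 to -0.12) with 1614 and 830, and the methyltransferase gene Ezh2 at 0.10 (0.01 to 0.19) with 2474 and 1613.

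The 9 Trithorax and H3K27 demethylase genes, whose products keep Hox loci active, were split. The interval lay below 0 at Kmt2b, Kmt2d, Men1 and Kdm6a, with ratios of -0.10 to -0.27, and above 0 at Kmt2a, Kmt2c and Ash2l. Kmt2a, which encodes the methyltransferase MLL1, had 2258 WT and 1825 TCKO counts, a ratio of 0.41 (0.32 to 0.50). Of the caudal genes, which act upstream of the Hox clusters, Cdx1 held 529 and 400 counts, a ratio of 0.31 (0.13 to 0.50). Cdx2 and Cdx4 held 39 and 26, and 18 and 29 counts. Evx2, the homeobox gene beside Hoxd13, held 81 and 62 counts, a ratio of 0.33 (-0.14 to 0.81), and Evx1, beside Hoxa13, had no region. All signs above 0 in these lists except that of Cdx4 turn with the peak caller background.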

How the data were processed

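The sources were a count table and peak lists from ATAC-seq of WT and TCKO osteoblasts. Per the methods, the authors aligned reads end to end with STAR (2.7.0e per the processing notes) to GRCm38, merged replicates and called peaks with MACS2. They deposited raw read counts per region, 1 merged column per genotype. Their deposited peak lists gave fold enrichment (a ratio to local background) and −log10 p-values and q-values. Removal of duplicates or mitochondrial reads and a transposase shift were not stated. The labels name an RNA library kit, the methods a transposase kit.

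TCKO counts were scaled to the WT total, and 1 count was added to each genotype. Calls used a fold of 2. Alternatives were TMM (edgeR 4.0.16), size factors (DESeq2 1.42.0, R 4.3.3), no scaling, peak caller depth, loess, 20 GC bins and other region rules. The planned fallback to a count test needed columns per sample. Coordinates count from 1. Steps were tested on simulated data. Python was 3.11.15, pandas 2.3.3. Members, lists, motifs and rules were chosen with earlier results of these data known. Named were the 6 lowest and 6 highest loci with at least 200 counts and regions with at least 100 counts in 1 genotype, and the largest per cluster. Regions outside these rules, such as the Hoxb13 exon, were named after their values were seen. A listed cofactor gene is not reported here.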

Additional observations from a re-analysis of the deposited data

How the results depend on the processing

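Leaving out replicates could not be run, because each genotype was 1 merged column. No paired analysis was possible because the columns carry no replicate numbers. Scaling decided the sign of most sums. With no scaling 9 Hox regions were 2-fold lower and 1 higher (12.5% and 1.39%, beside 25.6% and 3.17% of all regions). The Hox median was -0.66, and the HoxA, HoxB, HoxC and HoxD ratios were -0.50, -0.28, -0.63 and -0.63. With the peak caller background they were -0.39, -0.17, -0.52 and -0.53, the median was -0.55, and 4 regions were lower and 1 higher; the anterior, central and posterior classes were at -0.51, -0.50 and -0.37, and Hoxa3, Hoxa10, Hoxb2, Hoxb7, Hoxb8, Hoxb9, Hoxb13, Hoxc11, Hoxd8 and Hoxd13 at -0.44, -0.29, -0.063, -0.25, -0.25, -0.077, -0.045, -0.15, -0.18 and -0.16. These 2 settings shift every region by one amount. The median was -0.020 with TMM, -0.0098 with size factors and -0.056 after loess, which gave HoxC -0.045 and HoxD -0.050; the medians of all regions were -0.010, 0 and 0.0069. GC bins left 1 Hox region 2-fold lower (1.39%, beside 5.80% of all regions). Within 2.0 kb of a start HoxB had 0.58, the anterior and central classes 0.28 and 0.27, Hoxa3 0.41, Hoxc9 -0.32, Hoxd3 0.13 and Hoxd4 0.056, with fewer regions summed. A fold of 1.5 gave 1 lower and 15 higher regions, a fold of 3 gave 1 higher, and 1 region had its interval wholly past the fold. These counts are given without a share over all regions and are not read as a result about the Hox loci. With a −log10 q-value of at least 5, 17 regions had a summit in both lists, 13 in WT alone and 2 in TCKO alone, of 32 Hox regions. Of all 152580 regions with such a summit, 32.9% had it in WT alone and 7.51% in TCKO alone. Leaving out the Hoxd3 and Hoxd4 intron region, chosen after seeing the data, gave HoxD 0.18. At the settings not given here for them, the ratios were 0.11 to 0.29 for HoxA, 0.32 to 0.47 for HoxB, 0.014 to 0.14 for HoxC and 0.0075 to 0.17 for HoxD. The depth of single regions limits what can be seen, and the merging leaves all differences without replicate error.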

Other observations

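The clusters stood in unequal surroundings. Regions were denser inside the 4 clusters, at 13.8 to 23.8 per 100 kb, than over the genome, at 9.39 per 100 kb. The 8 windows of 100 kb beside the clusters varied, from 9 per 100 kb on either side of HoxC to 20 beyond the Hoxb1 end. The WT counts per kb were 19.99 in HoxA, 14.9 in HoxB, 15.6 in HoxC and 24.9 in HoxD, beside 20.9 over the genome, so the clusters held many weak regions. The strongest region inside the clusters held 459 WT counts, while the strongest region in each 500 kb flank held 1209 to 4663.

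The flanks did not all share the ratio of their cluster. HoxD had a ratio of 0.09 (-0.01 to 0.18) over the whole cluster, and the 100 kb beyond the Hoxd1 end held 1885 WT and 912 TCKO counts, a ratio of -0.33 (-0.44 to -0.22). Over 500 kb on that side the ratio was -0.23 (-0.28 to -0.19), with 9 of 69 regions at least 2-fold lower and 6 higher, beside 4.51% and 12.3% of all regions, and over 500 kb on the Hoxd13 side it was 0.08 (0.03 to 0.14). The difference between these sides does not depend on the scaling factor. The 100 kb beyond Hoxc13 held 1036 and 486 counts, a ratio of -0.37 (-0.53 to -0.22), the HoxC cluster window 0.12 (0.01 to 0.22) and the 100 kb on the Hoxc4 side 0.22 (0.08 to 0.36). The 500 kb flanks of HoxC were at -0.06 and 0.04. For HoxB the cluster window had 0.30 (0.21 to 0.38), the 100 kb flanks 0.15 (0.05 to 0.24) and -0.06 (-0.14 to 0.01), and the 500 kb flanks -0.02 and -0.04. These windows were chosen with earlier results of these data known, and the values have no replicate check.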
